A study of Mus musculus with 18 samples.

Results

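The B cell receptor (BCR) and the coreceptors that tune it were followed through 9 genes in WEHI-231 cells, a murine B cell lymphoma line with an IgM BCR. The 9 genes were a given list, matched by symbol to the Ensembl gene identifiers of the count tables, which hold 55487 genes. They are the BCR chains Ighm and Igkc, the signalling chains Cd79a and Cd79b, the coreceptor genes Cr2 and Cd81, and the inhibitory receptors Cd22, Cd72 and Fcgr2b. All 9 had enough counts to be tested, the lowest being 582 counts of Cr2 in a library.

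RNA of 18 libraries was sequenced, 2 per group. The 9 groups combined 3 genotypes (parental cells, TFEB mutant clone #A-59 and TFEB mutant clone #B-20) with 3 times, being unstimulated (0 h) or BCR-stimulated for 6 h or 18 h with F(ab')2 fragments against mouse IgM at 10 µg/ml. The clones came from parental cells by electroporation of Cas9 with a crRNA against Tfeb and single-clone dilution, so that each mutant line is 1 clone. Neither a clone with intact TFEB nor a line with TFEB put back was analysed here, and what belongs to the clone and what to the loss of TFEB cannot be told apart. All unstimulated libraries are of 0 h, and none was kept unstimulated for 6 h or 18 h. Changes with anti-IgM and with time in culture therefore cannot be told apart, also where they are called responses below.

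The BCR is a membrane immunoglobulin that binds antigen, bound to the CD79A/CD79B pair, whose cytoplasmic motifs are phosphorylated when the receptor is ligated. CD21 (the product of Cr2) and CD81 belong to a coreceptor complex that lowers the threshold of BCR signalling when complement-coated antigen is bound. CD22, CD72 and FcγRIIB (the product of Fcgr2b) carry inhibitory motifs that recruit phosphatases and dampen the signal.

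The libraries held 11223588 to 29655262 counts on genes, with a median of 19846544. Levels are counts per Mio (CPM) after TMM scaling, and levels of different genes were compared only per kb of exon. Differences are log2 fold changes from edgeR's quasi-likelihood test over 15318 genes, with a standard error (SE) and a p adjusted by the Benjamini-Hochberg method. A gene passed the test at an adjusted p under 0.01 and was a DEG when its log2 fold change was also above 1 or below −1. With 2 libraries per group, the p-values rest on a spread shared by all 18 libraries. Where a number of genes with an unadjusted p under 0.05 is given, the share of all genes under it was not determined. The targeted gene Tfeb ranged from 79.2 to 99.9 CPM in the parental libraries, from 25.5 to 40.5 CPM in those of #A-59 and from 34.2 to 54.1 CPM in those of #B-20. Of the B cell markers, Pax5, Ebf1, Ms4a1, Blk and Cd74 were each at 43.2 CPM or more in every library. The 5 T cell markers summed to at most 0.786 CPM, the 4 plasma cell markers to at most 7.73 CPM and the 5 myeloid markers to at most 27.8 CPM, of which Itgam gave up to 26.3 CPM.

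In unstimulated parental cells the kappa chain gene was the most abundant of the 9 per kb of exon. Igkc stood at 2871 ± 5.43 CPM per kb (mean ± SD, n = 2 libraries here and below), above Ighm at 1989.5 ± 154 CPM per kb. The value of Igkc divides by 532 exon bases of the GENCODE model, which is longer than the RefSeq span given below, and on the shorter span it would be higher. Cd79a followed at 682 ± 29.5 CPM per kb and Cd79b at 534 ± 27.1 CPM per kb. All inhibitory and coreceptor genes were far below these 4. Cd72 reached 83.8 ± 8.73 CPM per kb and Cd22 73.7 ± 7.15 CPM per kb, and the libraries of these neighbours overlapped. Of the 3954 exon bases of Cd72, 2349 are shared with Tesk1 on the opposite strand, so that its value per kb and its place are uncertain. Cd81 reached 47.0 ± 0.239 CPM per kb, Cr2 11.2 ± 3.33 CPM per kb and Fcgr2b 6.40 ± 0.00266 CPM per kb. The libraries of the other neighbours in this order did not overlap. At 18 h the lower end of the order had changed: Fcgr2b was at 25.1 ± 2.72 CPM per kb and Cr2 at 6.21 ± 0.152 CPM per kb in parental cells. In #B-20, by contrast, Cr2 stayed above Fcgr2b per kb at 0 h (32.3 ± 4.05 against 10.9 ± 0.133) and at 18 h (35.7 ± 7.93 against 24.2 ± 2.01). Together, Ighm and Igkc took 0.334 to 0.628% of all counts in a library.

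**Figure D1:**
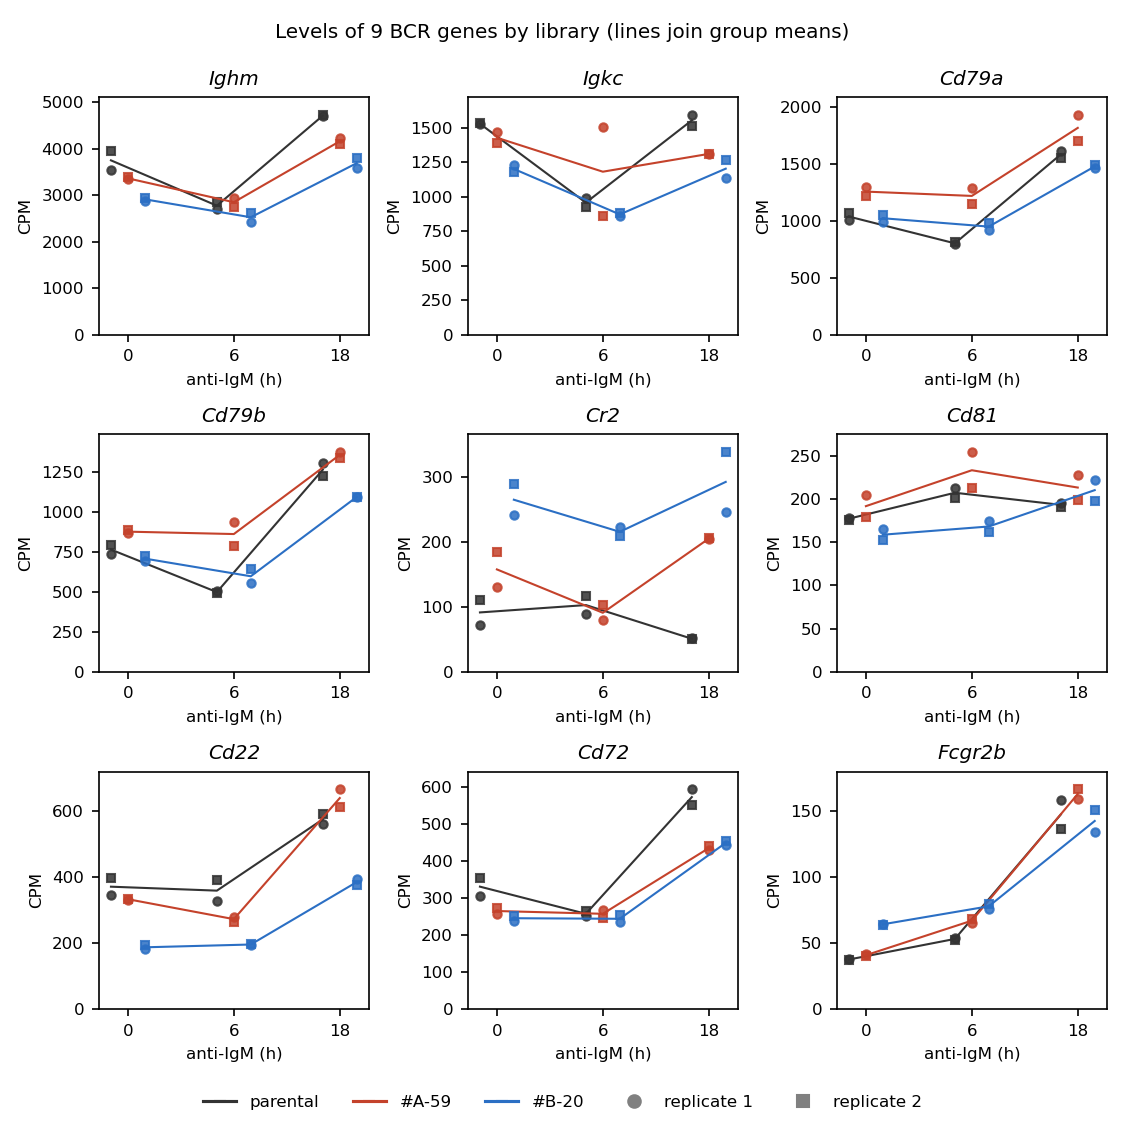
Levels of the 9 genes in CPM (vertical axis, linear from 0) in all 18 libraries against hours of anti-IgM (horizontal axis, equally spaced), with circles and squares for replicates 1 and 2 and lines through the group means. Fcgr2b climbed from 37.4 and 37.5 CPM to 136 and 158 CPM in parental cells, Cr2 separated the genotypes most at 18 h, and the Igkc values of #A-59 at 6 h lay far apart (1504 and 856 CPM).

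In parental cells, 5 of the 9 genes passed the test at 6 h of BCR stimulation and 7 at 18 h. At 6 h, 4 genes fell in parental cells (Ighm, Cd79a, Cd79b and Cd72; 4.24% of all tested genes fell) and Fcgr2b rose (3.10% of all genes rose), with a median log2 fold change of −0.36 over the 9 genes and 0.01 over all genes. With 1 library left out, 1 to 6 genes passed at 6 h, with 1 without parental 6 h replicate 1 or 0 h replicate 2, 3 without parental 0 h replicate 1 or 6 h replicate 2, and 6 without either #A-59 6 h library. At 18 h, 6 genes were above their level at 0 h (Ighm, Cd79a, Cd79b, Cd22, Cd72 and Fcgr2b; 16.4% of all genes) and Cr2 was below it (16.2% of all genes), with medians of 0.61 and 0.04. From 6 h to 18 h, 7 genes rose (19.4% of all genes) and Cr2 fell (18.9% of all genes). In this interval the median was 0.76 over the 9 genes and 0.03 over all genes. Cd79b, Cd72 and Fcgr2b were DEGs upward (7.54% of all genes) and Cr2 was a DEG downward (5.91%), and by 18 h against 0 h Fcgr2b was a DEG upward (5.56%).

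In #A-59, Fcgr2b passed at 6 h (2.45% of all genes rose) and the other 8 genes did not. With only the libraries compared in the fit, 0 passed, with the replicate number as a block Cr2 passed as well (−0.79, adjusted p = 0.00111), after the GC correction Ighm (−0.31, adjusted p = 0.00422) and Cd22 (−0.37, adjusted p = 0.00415) did, and without #A-59 6 h replicate 1 Igkc (−0.75) and without replicate 2 Cd81 (0.40) did. The 6 genes that rose in parental cells by 18 h rose in #A-59 as well (14.7% of all genes). Between 6 h and 18 h, 7 genes rose in #A-59 (14.9% of all genes), namely Ighm, Cd79a, Cd79b, Cr2, Cd22, Cd72 and Fcgr2b. In #B-20 none of the 9 genes passed at 6 h by edgeR, 4 had an unadjusted p under 0.05, and DESeq2 called 0. Of all genes, 0.411% rose and 0.875% fell in that comparison. The 2 libraries of #B-20 at 6 h stood furthest apart of any group, with a chi-square per degree of freedom of 58.2 over genes, followed by those of #A-59 at 6 h with 33.2, against 3.57 to 16.7 in the other groups, and the part of this in the number of calls was not tested. By 18 h, 7 genes had risen in #B-20 (11.4% of all genes), the same 6 and Cd81, and from 6 h to 18 h 6 genes rose (11.5% of all genes). Fcgr2b was a DEG by 18 h in both clones, as was Cd22 in #B-20 (of all genes, 4.17% for the first clone and 2.93% for the second), and Cr2, Cd22 and Fcgr2b were DEGs from 6 h to 18 h in #A-59 (4.43%). The median over the 9 genes at 18 h against 0 h was 0.53 in both clones, against 0.02 and 0.03 over all genes.

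**Figure D2:**
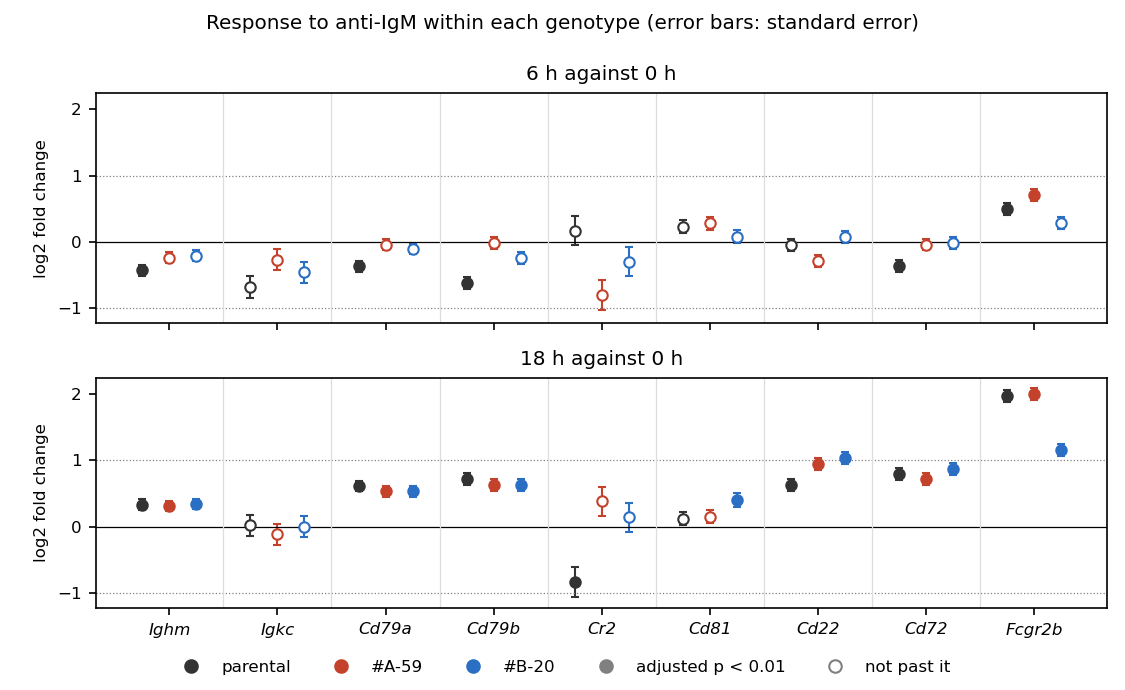
Log2 fold change (vertical axis) of each of the 9 genes at 6 h (upper panel) and 18 h (lower panel) against 0 h in parental cells, #A-59 and #B-20, with standard errors as bars. Filled points passed the test, and dotted lines mark log2 fold changes of 1 and −1; Fcgr2b had the largest rise in each genotype at 18 h, 1.97, 2.00 and 1.15.

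Differences between the response of a clone and the parental response were tested as interactions, for 36 pairs of a gene with a clone and time. A single value passed by edgeR, that of Fcgr2b in #B-20 at 18 h (0.104% of all genes passed downward), and 13 of the 36 had an unadjusted p under 0.05. The 36 values share the parental libraries of 0 h, and the share of all genes under this unadjusted p was not determined. The count of 13 is therefore no measure of an excess. None of the 9 genes passed in #A-59 at 6 h (0.346% of all genes passed upward and 0.300% downward), in #A-59 at 18 h (0.0196% each way) or in #B-20 at 6 h (0.0783% upward and 0.104% downward). In these 3 interactions 4, 2 and 4 genes had an unadjusted p under 0.05, and DESeq2 called 1 (Cd79b), 0 and 0.

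Between the clones and parental cells, Cr2 had the largest log2 fold change of the 9 genes apart from #A-59 at 6 h, where it was −0.18 and Cd79b 0.79. Cr2 was a DEG upward in #B-20 at 0 h (1.79% of all genes), 6 h (2.88%) and 18 h (1.91%) and in #A-59 at 18 h (2.0%), and none of the other 8 genes was a DEG against parental cells. In unstimulated #A-59 none of the 9 genes passed by edgeR (5.09% of all genes were higher and 4.47% lower), 4 had an unadjusted p under 0.05, DESeq2 called 1, Cd72 (−0.33, adjusted p = 0.00467), and a fit with the replicate number as a block called Cr2 (0.79, adjusted p = 5.77e-04) and Cd72 (−0.32, adjusted p = 0.00967). In unstimulated #B-20, Cr2 and Fcgr2b were higher (4.03% of all genes) and Ighm, Cd22 and Cd72 lower (6.66% of all genes). At 6 h, #A-59 was higher in Cd79a, Cd79b and Fcgr2b (11.4% of all genes) and lower in Cd22 (11.3% of all genes). At the same time #B-20 was higher in Cr2 and Fcgr2b (6.23% of all genes) and lower in Cd22 (8.0% of all genes). At 18 h, Cr2 was higher (4.75% of all genes) and Cd72 lower (5.68% of all genes) in #A-59. In #B-20 at 18 h, Cr2 was higher (5.70% of all genes) and Ighm, Cd22 and Cd72 were lower (8.55% of all genes). The comparisons of both clones at a time share the same 2 parental libraries.

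**Figure D3:**
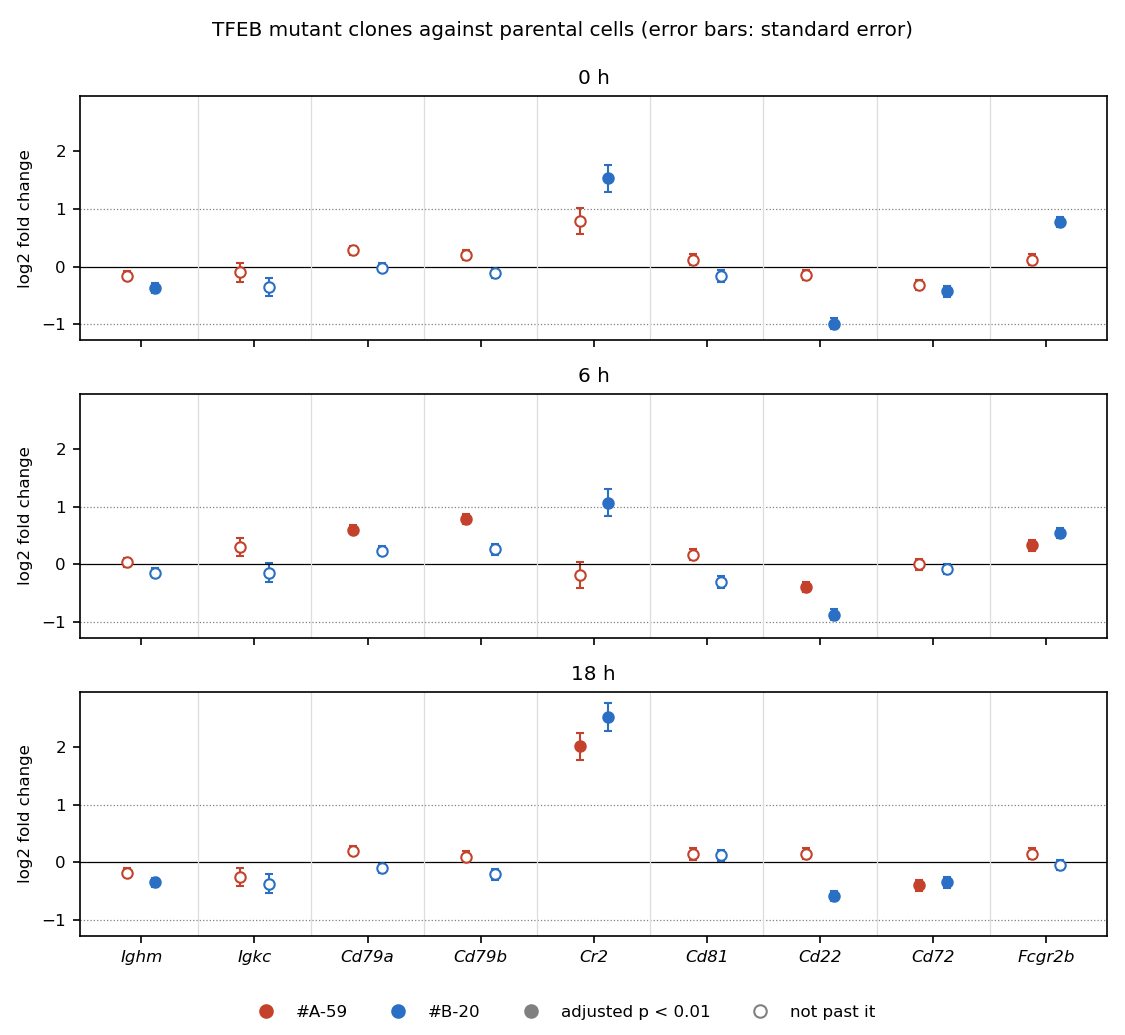
Log2 fold change (vertical axis) of each of the 9 genes in #A-59 and #B-20 against parental cells at 0, 6 and 18 h (panels from top to bottom), with standard errors as bars. Filled points passed the test; after 18 h, Cr2 reached 2.01 (#A-59) and 2.52 (#B-20), while Cd22 of #B-20 lay at −0.99, −0.87 and −0.58 over the 3 times.

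Set against each other, the clones differed in 2 of the 9 genes at 0 h, with Fcgr2b higher (2.74% of all genes) and Cd22 lower (5.67% of all genes) in #B-20. At 6 h, Cr2 was higher in #B-20 than in #A-59 (8.14% of all genes, and 2.19% as DEGs), and Cd79a, Cd79b, Cd81 and Cd22 were lower (10.6% of all genes). At 18 h, Cd22 was lower in #B-20 (8.09% of all genes), and DESeq2 called Cd79a and Cd79b as well.

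Ighm (ENSMUSG00000076617; GRCm38, chr12:113418826-113422730, minus strand) encodes the constant region of the µ heavy chain. In parental cells it stood at 3547 and 3958 CPM before stimulation, 2700.5 and 2852 CPM after 6 h and 4698 and 4733 CPM after 18 h. #A-59 had 3346 and 3384, 2949 and 2753, and 4226 and 4101 CPM at these times. #B-20 had 2885 and 2942, 2434 and 2619, and 3579 and 3805 CPM. In every genotype both libraries at 6 h were below, and both at 18 h above, those at 0 h. The fall at 6 h passed the test in parental cells (−0.43, SE 0.08, adjusted p = 5.97e-04 by edgeR's quasi-likelihood test), while the #A-59 value was −0.24 (adjusted p = 0.0429) and the #B-20 value −0.21 (adjusted p = 0.184). At 18 h Ighm was above its 0 h level by a log2 fold change of 0.33 in parental cells (SE 0.08, adjusted p = 0.00167), 0.31 in #A-59 (adjusted p = 0.00299) and 0.34 in #B-20 (adjusted p = 0.00183). Against parental cells, Ighm was lower in #B-20 at 0 h (−0.37, SE 0.08, adjusted p = 0.00198) and 18 h (−0.35, adjusted p = 0.00203), and the value at 6 h was −0.14 (adjusted p = 0.216). In #A-59 the log2 fold changes against parental cells were −0.16, 0.04 and −0.18, with adjusted p of 0.198, 0.740 and 0.120. In such bulk samples, fewer cells with a transcript and less of it per cell cannot be told apart, and counts per gene do not separate the secreted from the membrane form of µ. Each of these 6 calls ended when single libraries of the groups compared were left out, at adjusted p of 0.0132 to 0.0765: parental 6 h replicate 1 or 0 h replicate 2 for the fall at 6 h, parental 0 h replicate 1 or either 18 h library for the parental rise, any of the 4 libraries for #A-59, either 0 h library or 18 h replicate 2 for #B-20, either #B-20 library or parental replicate 2 for the difference at 0 h, and either parental library or #B-20 replicate 1 for that at 18 h. When genes of low counts were kept, the parental and #A-59 rises and the 18 h difference had adjusted p of 0.0244, 0.0259 and 0.0271, and after a GC correction the 0 h difference was −0.25 (adjusted p = 0.0133) and the #B-20 rise 0.24 (adjusted p = 0.0101).

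Igkc (ENSMUSG00000076609; chr6:70726435-70726754, plus strand) encodes the constant region of the kappa light chain. Parental cells held 1525 and 1529.5 CPM before stimulation, 989 and 923 CPM after 6 h and 1592 and 1512 CPM after 18 h. #A-59 held 1464 and 1388 CPM before stimulation, 1504 and 856 CPM after 6 h and 1307 and 1311 CPM after 18 h. #B-20 held 1225 and 1175, 858 and 883, and 1137 and 1267 CPM. All 6 h libraries were below those of the same genotype at 0 h, apart from replicate 1 of #A-59, which was above both. The exons of Igkc share 521 bases with Gm68839, a gene on the opposite strand in the annotation. The count tables do not hold Gm68839, and non-stranded reads do not separate it from Igkc. The standard error of Igkc was 0.16, against 0.08 for Ighm. The only difference of Igkc that passed was the parental rise from 6 h to 18 h (0.70, adjusted p = 0.00207), which ended without any 1 of its 4 libraries (adjusted p = 0.0109 to 0.0301). The parental value at 6 h against 0 h was −0.68 (adjusted p = 0.0108 by edgeR and 3.94e-04 by DESeq2). In #A-59 it was −0.27 (adjusted p = 0.294), in #B-20 −0.46 (adjusted p = 0.174). These calls depended on the #A-59 libraries of 6 h, which lay far apart. Without replicate 1 the values became −0.68 (adjusted p = 5.04e-07) in parental cells, −0.75 (adjusted p = 1.86e-05) in #A-59 and −0.48 (adjusted p = 2.05e-04) in #B-20, and #B-20 was then below parental cells when unstimulated (−0.35, adjusted p = 7.93e-04) and after 18 h (−0.36, adjusted p = 3.98e-04). Without replicate 2 instead, the parental value was −0.67 (adjusted p = 4.75e-07) and that of #A-59 0.08 (adjusted p = 0.556), so that the direction in #A-59 rested on the choice of library.

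Of the variable genes, Igkv1-88 led the kappa locus in 18 of 18 libraries with 91.1 to 94.7% of the Igkv counts, followed by Igkv17-127 with 5.26 to 8.67%. In the heavy chain locus, Ighv3-2 led in 18 of 18 libraries with 43.2 to 50.7% of the Ighv counts, followed by Ighv3-1 with 17.4 to 25.2%. The shares cover variable genes that resemble each other, between which reads can be split. Replicate 1 of #A-59 at 6 h did not stand apart in Igkv1-88, which was at 695 CPM there and 703 CPM in replicate 2. The ratio of Igkc to Igkv1-88 counts was 2.16 in that library and 1.09 to 1.48 in the other 17. Igkv1-88 fell at 6 h in parental cells (−0.72, SE 0.11, adjusted p = 2.01e-04) and in #A-59 (−0.64, adjusted p = 9.48e-04; −0.57 and 0.0199 without #A-59 0 h replicate 2), and #B-20 gave −0.41 (adjusted p = 0.0605). With only the libraries compared in the fit, the #A-59 value had an adjusted p of 0.0520.

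**Figure D4:**
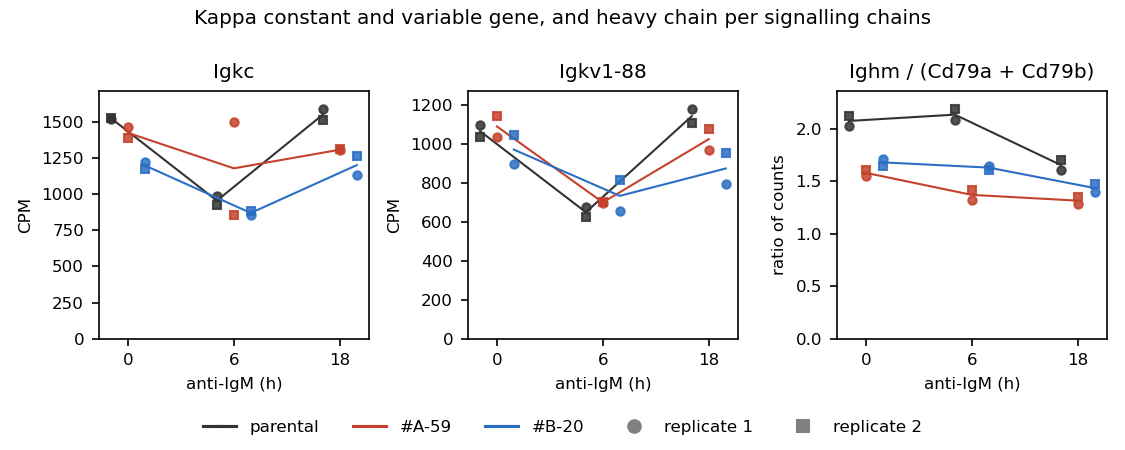
CPM of Igkc (left) and of the leading kappa variable gene Igkv1-88 (middle), and the ratio of Ighm counts to the sum of Cd79a and Cd79b counts (right), in all 18 libraries against hours of anti-IgM (equally spaced), with lines through the group means. Replicate 1 of #A-59 at 6 h stood apart in Igkc (1504 CPM) but not in Igkv1-88 (695 CPM), and both parental libraries had the highest ratio at each time.

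Cd79a (ENSMUSG00000003379; chr7:24897497-24901858, plus strand) and Cd79b (ENSMUSG00000040592; chr11:106311341-106314562, minus strand) encode the signalling pair of the BCR. Exons of Cd79a share 128 bases with Gm72234, a gene on the opposite strand that the count tables do not hold. Cd79a stood at 1007 and 1071 CPM in parental cells before stimulation, 794 and 813 CPM after 6 h and 1615 and 1558 CPM after 18 h. In #A-59 it was at 1301 and 1217, 1294 and 1148, and 1935 and 1705 CPM, and in #B-20 at 993 and 1056, 919.6 and 982, and 1466 and 1495 CPM. At 6 h both parental libraries were below all 4 libraries of the clones. The parental fall at 6 h was −0.37 (SE 0.08, adjusted p = 0.00513), and it ended without any 1 of the 4 libraries compared (adjusted p = 0.0157 to 0.0765). In #A-59 and #B-20 the values were −0.04 (adjusted p = 0.780) and −0.11 (adjusted p = 0.605). The rise by 18 h was 0.61 in parental cells (SE 0.08, adjusted p = 1.02e-05), 0.53 in #A-59 (adjusted p = 4.87e-05) and 0.53 in #B-20 (adjusted p = 8.92e-05). At 6 h Cd79a was higher in #A-59 than in parental cells (0.60, SE 0.08, adjusted p = 1.85e-05), and #B-20 gave 0.24 (adjusted p = 0.0421). The #B-20 value passed after the GC correction (0.39, adjusted p = 2.14e-04) and with only the libraries compared (0.25, adjusted p = 0.00460).

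Cd79b had a similar course, with 737 and 792 CPM in parental cells before stimulation, 506 and 491 CPM after 6 h and 1303 and 1225 CPM after 18 h. #A-59 had 865 and 888, 938 and 785, and 1374 and 1339 CPM. #B-20 had 692 and 724, 554 and 641, and 1093 and 1094 CPM. Again both parental libraries at 6 h were below all those of the clones. The parental fall at 6 h was −0.62 (SE 0.09, adjusted p = 9.50e-05), beside −0.02 in #A-59 (adjusted p = 0.898) and −0.25 in #B-20 (adjusted p = 0.179). By 18 h Cd79b had risen by 0.72 in parental cells (adjusted p = 3.36e-06), 0.63 in #A-59 (adjusted p = 1.72e-05) and 0.63 in #B-20 (adjusted p = 3.68e-05), on the log2 scale. After 6 h the #A-59 level exceeded the parental one by 0.79 on the log2 scale (SE 0.09, adjusted p = 1.83e-06), and #B-20 by 0.26 (adjusted p = 0.0419). The #B-20 value passed after the GC correction (0.38, adjusted p = 7.21e-04). The difference in the 6 h response between #A-59 and parental cells was 0.59 (SE 0.13, adjusted p = 0.0182), and it passed by DESeq2 (0.60, adjusted p = 0.00106), without a filter on low counts (adjusted p = 0.00189) and without #A-59 6 h replicate 2 (0.71, adjusted p = 6.74e-04). #B-20 was below #A-59 at 6 h in Cd79a (−0.36, adjusted p = 0.00309) and Cd79b (−0.53, adjusted p = 2.32e-04). For Cd79a this ended without #A-59 replicate 1 or either #B-20 library (adjusted p = 0.0131 to 0.0410) and after the GC correction (−0.10, adjusted p = 0.281), and for both genes with only the libraries compared in the fit (adjusted p = 0.101 and 0.0388).

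Within a library, the ratio of Ighm counts to those of Cd79a and Cd79b together does not depend on the scaling. It was 2.03 and 2.12 in unstimulated parental cells, 2.08 and 2.19 after 6 h, and 1.61 and 1.70 after 18 h. In #A-59 it was 1.55 and 1.61, 1.32 and 1.42, and 1.28 and 1.35, and in #B-20 1.71 and 1.65, 1.65 and 1.61, and 1.40 and 1.47. At each time both parental libraries had a higher ratio than all 4 of the clones. The Cd79a level was 1.16 to 1.56 times that of Cd79b per kb over all libraries, and within each genotype the 6 h libraries of parental cells (1.47 and 1.56) and #B-20 (1.56 and 1.44) had the highest values. Igkc per Ighm, per kb, was 1.37 to 1.55 in the 6 libraries at 0 h and 1.10 to 1.20 in the 6 at 18 h, on the longer Igkc model.

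Cr2 (ENSMUSG00000026616; chr1:195136811-195176880, minus strand) encodes the complement receptors CD21 and CD35. It was at 72.3 and 111 CPM in parental cells before stimulation, 89.0 and 117 CPM after 6 h and 51.9 and 50.2 CPM after 18 h. #A-59 had 131 and 185 CPM before stimulation, 79.2 and 103 CPM after 6 h and 205 and 206 CPM after 18 h. #B-20 had 242 and 289, 223 and 209, and 247 and 339 CPM. All #B-20 libraries were above all parental ones, whereas the libraries of #A-59 overlapped with the parental ones at 6 h. After 18 h, Cr2 exceeded the parental level by a log2 fold change of 2.01 in #A-59 (SE 0.24, adjusted p = 4.58e-05) and 2.52 in #B-20 (SE 0.24, adjusted p = 4.22e-06). #B-20 was also higher at 0 h (1.53, SE 0.23, adjusted p = 3.21e-04) and 6 h (1.07, SE 0.23, adjusted p = 0.00356). #A-59 gave 0.79 at 0 h (adjusted p = 0.0297, and 0.00665 at 1.13 without parental 0 h replicate 2) and −0.18 at 6 h (adjusted p = 0.587). The clones differed at 6 h, where #B-20 was higher than #A-59 (1.25, SE 0.23, adjusted p = 0.00118; 1.07 to 1.19 and 0.010 to 0.0550 without #A-59 or #B-20 replicate 1, and 0.94 and 0.0104 after the GC correction). The 6 h call of #B-20 against parental cells ended without parental replicate 1 or any 1 of the 4 clone libraries of that time (0.88 to 1.11, adjusted p = 0.0130 to 0.0523), without the filter (adjusted p = 0.0269) and after the GC correction (0.92, adjusted p = 0.0119).

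Over time, Cr2 fell in parental cells from 0 h to 18 h (−0.84, SE 0.23, adjusted p = 0.00961) and from 6 h to 18 h (−1.01, SE 0.23, adjusted p = 0.00266). In #A-59 it rose from 6 h to 18 h (1.18, SE 0.23, adjusted p = 9.35e-04; 0.99 and 0.0442 without #A-59 6 h replicate 1), and the value at 18 h against 0 h was 0.38 (adjusted p = 0.193). In #B-20 the log2 fold change from 0 h was −0.30 to 6 h (adjusted p = 0.594) and 0.14 to 18 h (adjusted p = 0.658). The 18 h response of #A-59 exceeded the parental response by 1.22 (SE 0.32, adjusted p = 0.269) and that of #B-20 by 0.99 (SE 0.32, adjusted p = 0.196), neither of which passed. The parental fall by 18 h was close to the threshold: it ended in 11 of the 18 fits that left out 1 library (−0.90 to −0.53, adjusted p = 0.0102 to 0.0916, with −0.53 without parental 0 h replicate 2), without the filter (adjusted p = 0.0375) and with only the libraries compared (adjusted p = 0.0910). The fall from 6 h ended without parental 6 h replicate 2 or either 18 h library (−1.07 to −0.83, adjusted p = 0.0156 to 0.0257) and without the filter (adjusted p = 0.0138).

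Because Cr2 and Fcgr2b varied most over the 9 groups, by 2.5 and 2.12 on the log2 scale, their promoters are shown, from RefSeq on GRCm38.p6, as 250 bases before to 50 after the start site, written 5′ to 3′ on the gene's strand. Capitals mark a match to a loose pattern, GGGA and CC with any 4 bases between them, which is called the NF-κB pattern here. Cr2 promoter, chr1:195176670-195176969, minus strand: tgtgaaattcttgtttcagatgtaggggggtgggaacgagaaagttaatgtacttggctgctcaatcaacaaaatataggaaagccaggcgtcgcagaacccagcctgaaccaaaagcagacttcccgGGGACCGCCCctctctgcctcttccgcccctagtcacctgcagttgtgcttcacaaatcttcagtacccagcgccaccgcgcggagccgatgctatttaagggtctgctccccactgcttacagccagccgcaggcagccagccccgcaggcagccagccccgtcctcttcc
Fcgr2b promoter, chr1:170976022-170976321, minus strand: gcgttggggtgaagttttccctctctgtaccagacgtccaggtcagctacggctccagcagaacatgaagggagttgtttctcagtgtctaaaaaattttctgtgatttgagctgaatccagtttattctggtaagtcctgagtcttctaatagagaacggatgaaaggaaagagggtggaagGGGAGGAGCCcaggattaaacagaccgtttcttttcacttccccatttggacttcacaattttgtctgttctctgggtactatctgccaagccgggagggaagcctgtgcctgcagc
Promoters were matched for 6 of the 9 genes (Cd79a, Cr2, Cd81, Cd22, Cd72 and Fcgr2b), with 1 window each, and other start sites were not searched. The windows of Cd22 and Cd72 lie inside the gene spans given below. The NF-κB pattern, searched on both strands, was found in 2 of the 6, as GGGACCGCCC starting at −122 from the Cr2 start site and as GGGAGGAGCC at −67 in Fcgr2b, and in 20.7% of 32851 promoters. None of the 6 held CACGTG, the E-box that TFEB and other basic helix-loop-helix factors bind, which 7.15% of all promoters held. The longer TCACGTGA (0.974% of all promoters, each of which also counts as CACGTG) and the octamer ATTTGCAT (1.74%) were likewise found in 0 of the 6 windows. These are matches of letters, not measured sites.

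Cd81 (ENSMUSG00000037706; chr7:143052750-143067930, plus strand), the tetraspanin of the complex, varied least of the 9 genes, by 0.55 between the highest and the lowest group mean on the log2 scale. Parental cells had 178 and 176, 213 and 201, and 195 and 191 CPM over the 3 times. #A-59 had 204 and 179, 254 and 212, and 227 and 199 CPM, and #B-20 had 165 and 152, 174 and 162, and 222 and 198 CPM. No difference from parental cells passed by edgeR, with log2 fold changes from −0.30 to 0.17. Cd81 of #B-20 at 6 h gave the −0.30 (adjusted p = 0.0358). This value passed with the replicate number as a block (adjusted p = 0.00673) and with only the libraries compared (adjusted p = 0.00196). In #B-20 Cd81 rose by 18 h (0.40, SE 0.10, adjusted p = 0.00443), a call that ended in 9 of 18 fits with 1 library left out (0.30 to 0.44), those without any 1 of the 6 parental libraries, either #B-20 0 h library or #B-20 18 h replicate 1, and after the GC correction (0.27, adjusted p = 0.0107). At 6 h Cd81 was lower in #B-20 than in #A-59 (−0.47, SE 0.10, adjusted p = 0.00170), which ended without #A-59 replicate 1 or #B-20 replicate 2 (−0.42 to −0.34, adjusted p = 0.0264 to 0.0292), after the GC correction (−0.29, adjusted p = 0.0104) and with only the libraries compared (adjusted p = 0.0411). The exons of Cd81 share 310 bases with R74862, a gene on the opposite strand in the annotation, and the non-stranded reads of both cannot be told apart.

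Cd22 (ENSMUSG00000030577; chr7:30865404-30880342, minus strand) encodes a sialic acid-binding lectin that inhibits BCR signalling. It stood at 346 and 397 CPM in parental cells before stimulation, 328 and 391 CPM after 6 h and 561 and 591 CPM after 18 h. #A-59 had 332 and 335, 281 and 265, and 667 and 614 CPM. #B-20 had 181 and 194, 195 and 197, and 395 and 376 CPM. At each time both #B-20 libraries were below all 4 of parental cells and #A-59. Against parental cells the log2 fold change of unstimulated #B-20 was −0.99 (SE 0.09, adjusted p = 2.65e-07). It was −0.87 after 6 h of stimulation (adjusted p = 9.20e-07) and −0.58 after 18 h (adjusted p = 1.20e-04). Against #A-59 it was −0.83 (adjusted p = 3.57e-06), −0.48 (adjusted p = 7.58e-04; 0.0272 with only the libraries compared) and −0.73 (adjusted p = 1.07e-05). #A-59 was below parental cells at 6 h (−0.39, SE 0.09, adjusted p = 0.00272), which ended without parental or #A-59 6 h replicate 2 (−0.35 to −0.27, adjusted p = 0.0117 to 0.0798) and with only the libraries compared (adjusted p = 0.0658), and the values at 0 h and 18 h were −0.15 and 0.15 (adjusted p = 0.319 and 0.293). Cd22 rose by 18 h in all 3 genotypes, by 0.63 in parental cells (adjusted p = 2.01e-05), 0.94 in #A-59 (adjusted p = 2.84e-07) and 1.04 in #B-20 (adjusted p = 4.14e-07), on the log2 scale, and no value at 6 h against 0 h passed. The differences of the 18 h responses from the parental one were 0.31 (adjusted p = 0.649) and 0.41 (adjusted p = 0.16). Exons of Cd22 share 479 bases with Gm29439 and 111 with Gm72789, genes on the opposite strand, the latter not in the count tables.

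Cd72 (ENSMUSG00000028459; chr4:43447724-43455102, minus strand) encodes an inhibitory C-type lectin. Parental cells had 307 and 356 CPM before stimulation, 251 and 265 CPM after 6 h and 595 and 553 CPM after 18 h. #A-59 had 257 and 274, 269 and 247, and 429.7 and 442 CPM. #B-20 had 239 and 253, 235 and 254, and 445 and 455 CPM. Both parental libraries were above all those of the clones at 0 h and 18 h, and the genotypes overlapped at 6 h. Cd72 rose by 18 h in parental cells (0.79, SE 0.09, adjusted p = 7.80e-07), in #A-59 (0.72, adjusted p = 2.94e-06) and likewise in #B-20 (0.87, adjusted p = 1.12e-06). In parental cells it fell at 6 h (−0.36, SE 0.09, adjusted p = 0.00833), and in #A-59 and #B-20 the values were −0.04 and −0.01. Against parental cells at 18 h it was lower by −0.40 in #A-59 (SE 0.09, adjusted p = 0.00287) and −0.35 in #B-20 (SE 0.09, adjusted p = 0.00557), and at 0 h by −0.43 in #B-20 (adjusted p = 0.00153), beside −0.32 in #A-59 (adjusted p = 0.0143 by edgeR and 0.00467 by DESeq2), on the log2 scale.

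These Cd72 calls lay near the threshold, apart from the rises by 18 h. The fall at 6 h ended in 13 of 18 fits with 1 library left out (−0.40 to −0.25, adjusted p = 0.0102 to 0.194), and the difference of #A-59 at 18 h ended without any 1 of the 4 libraries compared (−0.45 to −0.33, adjusted p = 0.0114 to 0.0623). That of #B-20 at 18 h ended in 6 fits (−0.41 to −0.29, adjusted p = 0.0101 to 0.0876), those without a #B-20 18 h library or a parental library of 6 h or 18 h, and without the filter (−0.27, adjusted p = 0.0523) or after the GC correction (−0.26, adjusted p = 0.0270). That of #B-20 at 0 h ended without #B-20 replicate 1 or parental replicate 2 (−0.39 to −0.32, adjusted p = 0.0323 to 0.0512) and was −0.19 after the GC correction (adjusted p = 0.136). Cd72 shares 2349 exon bases with Tesk1, a gene on the opposite strand, which non-stranded reads do not separate.

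Fcgr2b (ENSMUSG00000026656; chr1:170960558-170976071, minus strand) encodes the inhibitory IgG Fc receptor of B cells. It was at 37.5 and 37.4 CPM in parental cells before stimulation, 53.7 and 52.3 CPM after 6 h and 158 and 136 CPM after 18 h. #A-59 had 41.3 and 40.1, 65.4 and 68.2, and 159 and 166 CPM. #B-20 had 64.6 and 63.5, 75.6 and 79.7, and 134 and 150.2 CPM. The #B-20 libraries were above all others at 0 h and 6 h and overlapped with the parental ones at 18 h. By 18 h Fcgr2b had risen 3.92-fold in parental cells (log2 fold change 1.97, SE 0.09, adjusted p = 1.49e-10), 4.0-fold in #A-59 (2.00, SE 0.09, adjusted p = 1.11e-10) and 2.21-fold in #B-20 (1.15, SE 0.09, adjusted p = 1.11e-07). At 6 h the values were 0.50 (adjusted p = 7.19e-04), 0.71 (adjusted p = 4.52e-05) and 0.28 (adjusted p = 0.116) in the same order. Against parental cells Fcgr2b was higher in #B-20 at 0 h (0.77, SE 0.09, adjusted p = 4.14e-06) and 6 h (0.55, adjusted p = 1.26e-04), and at 18 h the value was −0.05 (adjusted p = 0.731). In #A-59 it passed after 6 h (0.33, adjusted p = 0.00694), beside 0.12 before stimulation (adjusted p = 0.454) and 0.15 after 18 h (adjusted p = 0.284).

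The 18 h response of #B-20 was below the parental one by an interaction of −0.82 on the log2 scale (SE 0.12, adjusted p = 0.00460), and that of #A-59 differed by 0.03 (SE 0.12, adjusted p = 0.998). The #B-20 value ended as a call without parental 18 h replicate 1, #B-20 18 h replicate 1 or any 1 of the 4 libraries of 0 h from these genotypes (−0.83 to −0.70, adjusted p = 0.0135 to 0.0368), and with only the libraries compared (−0.83, adjusted p = 0.0137). The call of #A-59 at 6 h ended in 12 of 18 such fits (0.30 to 0.36, adjusted p = 0.0101 to 0.0726), without the filter (adjusted p = 0.0143) and with only the libraries compared (adjusted p = 0.0544). The parental rise at 6 h ended without either 0 h library or 6 h replicate 1 (0.48 to 0.50, adjusted p = 0.0118 to 0.0157), and that of #A-59 with only the libraries compared (adjusted p = 0.0300). Fcgr2b shares 355 exon bases with Gm38204, a gene on the opposite strand, and Fcgr3, a related Fc receptor gene, was at 0.362 to 1.72 CPM over all libraries.

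Other genes of the receptor were taken from 4 lists with 50 genes in all, 41 of which were tested. Of 8 tested genes for other immunoglobulin constant regions or the J chain, 0 were higher and 3, 4 and 5 lower in #A-59 at 0, 6 and 18 h, and the same numbers held in #B-20. Of all genes, 4.47%, 11.3% and 5.68% were lower in #A-59 and 6.66%, 8.0% and 8.55% in #B-20. The median log2 fold changes were −0.93, −0.86 and −1.34 in #A-59 and −0.92, −0.73 and −0.61 in #B-20, against −0.02 to 0.01 over all genes. Ighg3, an IgG heavy chain constant gene, was at 12.3 and 11.2 CPM in unstimulated parental cells, 0.745 and 0.570 CPM in #A-59, and 0.268 and 0.186 CPM in #B-20. Unstimulated #A-59 differed by −4.11 and #B-20 by −5.67 (log2, SE 0.22 and 0.29, adjusted p = 7.52e-11 and 6.95e-11), and the values were −3.80 and −5.19 after 6 h of stimulation and −4.61 and −5.23 after 18 h. The lambda constant gene Iglc1 was at 6.04 and 7.82 CPM in unstimulated parental cells and at most 0.718 CPM in any clone library, with log2 fold changes of −4.12 and −4.72 at 0 h. Iglc3 was lower by −1.14 and −1.02 at 0 h and −1.35 and −1.08 at 6 h on the log2 scale. The lambda constant genes resemble each other closely, so that reads can be split between them. Ighg1 held 72 and 64 counts in parental cells at 6 h, 5 and 3 in #A-59 and 5 and 1 in #B-20, and Jchain, the joining chain of polymeric IgM, was lower at 18 h (−1.81 and −1.31).

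In the list of coreceptor and tetraspanin partners, the tetraspanin gene Cd9 was lower at 18 h (−1.06 in #A-59, adjusted p = 9.78e-04; −2.70 in #B-20, adjusted p = 3.41e-08), and the #A-59 call ended without #A-59 18 h replicate 1 or parental 18 h replicate 2 (−0.97 to −0.95, adjusted p = 0.0238 to 0.0252). Cd82 was higher in both clones at 6 h (1.30 and 1.09, adjusted p = 2.69e-08 and 3.58e-07). In parental cells at 18 h, Cd53 rose (1.18, adjusted p = 1.14e-05) and Tspan33 fell (−1.32, adjusted p = 3.65e-07). Ifitm1 rose from 2 counts in each library to 9 and 11 (adjusted p = 8.54e-04), which ended without parental replicate 1 of 0 h or of 18 h (adjusted p = 0.0110 to 0.0172).

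Among 14 tested inhibitory receptors and phosphatases, 5, 8 and 3 were higher and 1, 1 and 2 lower in #A-59 over the 3 times, with 6, 6 and 5 higher and 3, 2 and 3 lower in #B-20. Of all genes, 5.09%, 11.4% and 4.75% were higher in #A-59 and 4.03%, 6.23% and 5.70% in #B-20. Lower were 4.47%, 11.3% and 5.68% of all genes in #A-59 and 6.66%, 8.0% and 8.55% in #B-20. The list's median log2 fold changes were 0.25, 0.49 and 0.17 in #A-59 and 0.15, 0.28 and 0.11 in #B-20, against −0.02 to 0.01 over all genes. Of the 3 tested myeloid markers, Itgam, which encodes an integrin chain, was higher in #A-59 at 0, 6 and 18 h (2.65, 3.87 and 1.74, adjusted p = 2.15e-07, 8.51e-09 and 3.61e-06). #B-20 had more of it before stimulation and after 6 h (1.37 and 1.57, adjusted p = 0.00185 and 0.00421), and at 18 h 0 of the 3 markers passed there. The median log2 fold changes of the 3 markers were −0.62, 2.34 and 1.74 in #A-59 and −0.95, 0.29 and −0.29 in #B-20. Csf1r was higher in #A-59 at 6 h (2.34, adjusted p = 0.00171), while Lyz2 and Cd14 stayed at or below 0.0653 CPM, and the part of these markers in the list's values was not tested. Siglecg, a CD22-related lectin, was at 20.1 and 20.6 CPM in unstimulated parental cells, 54.0 and 55.5 CPM in #A-59, and 47.0 and 52.3 CPM in #B-20. The 2 clones exceeded parental cells by 1.42 and 1.28 before stimulation (log2, SE 0.09 each, adjusted p = 6.88e-10 and 3.88e-09), by 2.44 and 1.80 after 6 h, and by 1.64 and 0.99 after 18 h. Ceacam1 (1.12 and 1.23) and Cd300a (1.67 and 3.12) were higher in both clones at 6 h, and Fcrl1 at 18 h (1.14 and 1.43). In the parental response at 18 h, 9 of the 14 rose (16.4% of all genes) and 2 fell (16.2%), with a median of 0.51 against 0.04 over all genes. Its DEGs were Fcrla (2.08), Ceacam1 (1.85), Pirb (1.45), Siglecg (1.38) and Pecam1 (1.25), each a log2 fold change with an adjusted p of at most 9.03e-08 for Pecam1.

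The fourth list held 11 tested receptors of the B cell membrane, of which 1, 2 and 4 were higher and 2, 2 and 1 lower in #A-59, and 2, 5 and 2 higher and 2, 2 and 1 lower in #B-20, beside the same shares of all genes. Its median log2 fold changes were 0.34, −0.09 and 0.22 in #A-59 and 0.44, 0.72 and 0.36 in #B-20, against −0.02 to 0.01 over all genes. Cd40, the receptor for T cell help, was at 60.9 and 51.6 CPM in parental cells at 6 h and higher in both clones (1.07 and 1.05, adjusted p = 1.17e-05 and 1.83e-05). Fcer2a, the low-affinity IgE receptor CD23, gave 1.18 and 1.19 at that time (adjusted p = 0.00190 and 0.00258), and these calls ended without either parental library, #A-59 replicate 1 or 2 or, for #B-20, its replicate 2 (adjusted p = 0.0140 to 0.0372), and without the filter (adjusted p = 0.0151 and 0.0231), and for #A-59 after the GC correction (adjusted p = 0.0111). In the parental response at 18 h, Ms4a1 (CD20) rose (2.25, adjusted p = 3.81e-05; 0.0154 with only the libraries compared), as did Ptprc (1.12) and Cd38 (1.05). Cd24a (−1.74; adjusted p = 0.0190 with only the libraries compared) and Cd40 (−1.65) fell. Fcgr3 rose from 10 and 9 counts to 11 and 23 (1.58 after scaling, adjusted p = 0.00489), which ended without any 1 of these 4 libraries (adjusted p = 0.0140 to 0.0829) and by DESeq2 (adjusted p = 0.0189).

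**Figure D5:**
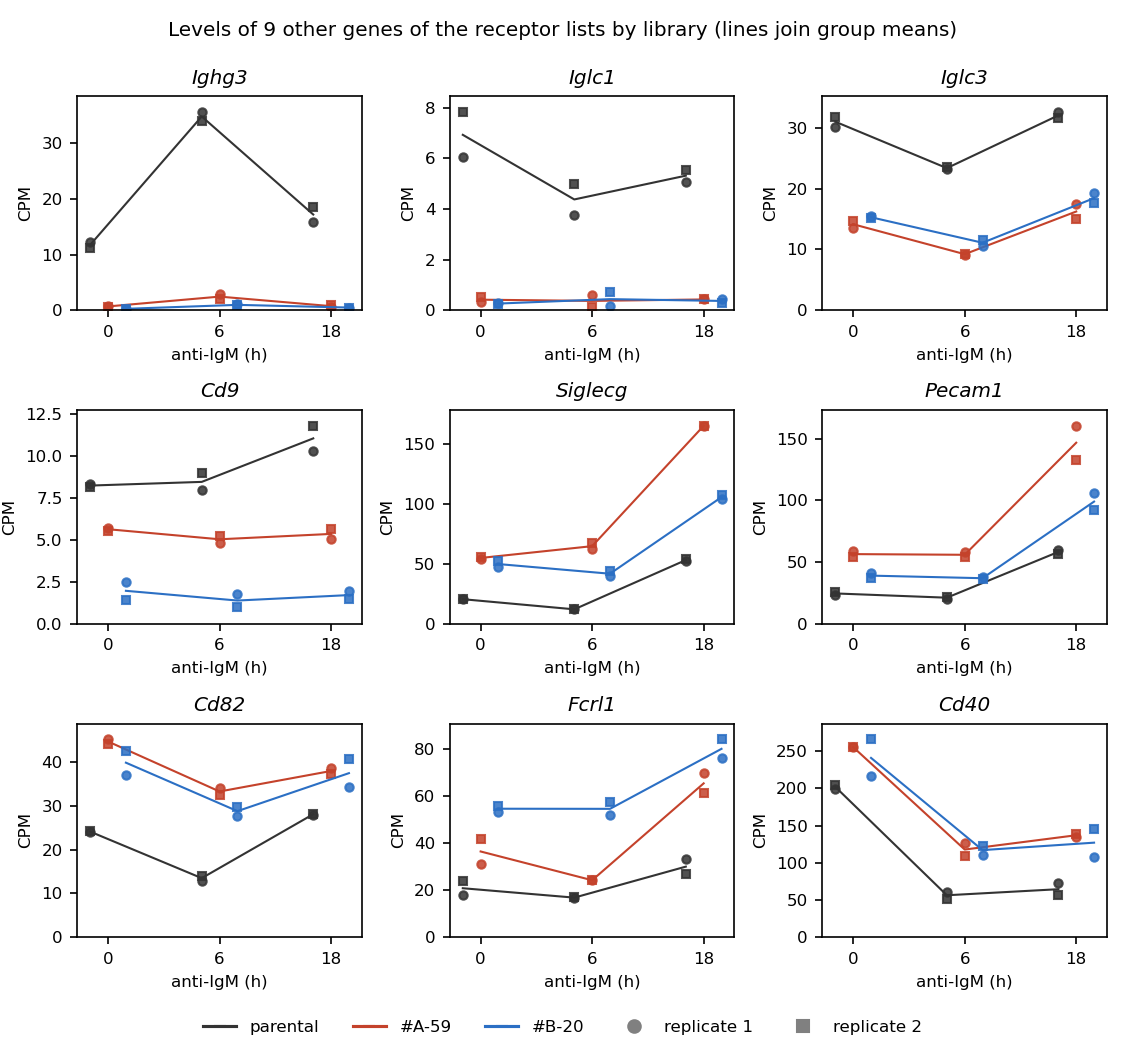
CPM (vertical axes, linear from 0) of 9 other genes of the lists, 2 immunoglobulin lambda and 1 gamma constant gene, 2 tetraspanins and 4 receptors, in all 18 libraries against hours of anti-IgM (equally spaced), with lines through the group means. Ighg3 and Iglc1 were near 0 in both clones, and Siglecg was at 12 and 11.8 CPM in parental cells at 6 h and at 39.4 to 67.2 CPM in the clones.

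For the 6 members that varied by more than 1 on the log2 scale over the 9 groups, the genes of the closest pattern were those with the smallest root mean square (rms) difference of centred log2 CPM over these groups. Closest to Cd79a were Marchf2, Vrk3 and Ezh1 (rms 0.06, 0.06 and 0.07), and closest to Cd79b Hcfc1r1, Pstpip1 and Gucd1 (0.08, 0.08 and 0.09). Cd72 had Zcchc24, Spred3 and Cdc25b (0.08, 0.09 and 0.10), and Cd22 had Plekho2, Kdm5b and B3gnt9 (0.16, 0.17 and 0.18). For Fcgr2b these were B230319C09Rik, Neb and Impg2 (0.23, 0.23 and 0.24). Cr2 had the least close neighbours, Chd7, Gm16093 and Plscr2 (0.28, 0.31 and 0.34). The likeness is a description of 9 group means that share their libraries.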

How the data were processed

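The deposited tables hold raw counts of reads for each Ensembl gene, as the authors' counting program gave them. Per the labels and the paper's methods, non-stranded TruSeq libraries were sequenced single-end, demultiplexed with bcl2fastq 2.20.0.422 (the submitters' processing notes), aligned to GRCm38 with STAR 2.5 and counted with featureCounts 1.5.0-p1; its options are not given in the sources used here. Totals ranged from 11223588 to 29655262 counts, and 0 counts allow up to 3; this covers counting error only.

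With edgeR 4.0.16 in R 4.3.3, genes were kept by filterByExpr, scaled by TMM, and fitted with 1 mean for each of 9 groups (glmQLFit, robust). P-values were adjusted per comparison over 15318 genes. The 2 libraries of a group are independent experiments per the paper. The members and gene lists were chosen with earlier results of these data known. Named list genes were DEGs of 1 direction in both clones at a time or in the parental 18 h response, beside Ms4a1; 1 further gene is not reported here. Coordinates and promoters are RefSeq (GRCm38.p6), and exon lengths GENCODE vM39, whose models can differ from those counted. The alternatives were DESeq2 1.42.0 without shrinkage, its size factors in edgeR, library sizes without immunoglobulin genes, no filter, at least 10 counts in every library, a replicate block, a GC correction (loess, span 0.5), only the libraries compared, and leaving out each library. On simulated counts of #A-59 against parental cells at 6 h (14754 genes), edgeR called 174 of 200 genes with a log2 change of 2 and 0 others, and DESeq2 158 and 0 others. These counts were drawn with the same dispersion for every gene, and a call needed a log2 fold change above 1 or below −1 as well. The simulation therefore gives no error rate for calls of smaller changes in the real libraries.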

Additional observations from a re-analysis of the deposited data

Results flagged for a closer look

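The interaction of Fcgr2b in #B-20 at 18 h drew attention because the response of this clone differed from that of parental cells in a test of the difference itself. Its value was −0.82 on the log2 scale (adjusted p = 0.00460 by edgeR's quasi-likelihood test), with a rise of 1.15 in #B-20 and 1.97 in parental cells. With only the libraries compared in the fit it did not pass (−0.83, adjusted p = 0.0137 by the same test). With 1 library left out the value ranged from −0.94 to −0.70. Both #B-20 libraries started above both parental libraries at 0 h (64.6 and 63.5 against 37.5 and 37.4 CPM), and the genotypes overlapped at 18 h.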

How the results depend on the processing

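A value counted as reversed when its sign changed and it passed in the edgeR fit described above or under the alternative. Changes of sign in values that passed in neither were not counted. Of 286 member and named-gene values, 0 reversed in this sense under any of the 8 alternatives that gave a value. A minimum of 10 counts in every library left 270 of them and DESeq2 285, and all 286 had a value under the others. Of these, DESeq2's size factors and library sizes without immunoglobulin genes changed no call. The numbers of members past the threshold that moved by over 1.5 times are these. DESeq2 gave 1 in unstimulated #A-59 against parental cells (edgeR 0), 3 in #B-20 against #A-59 at 18 h (edgeR 1) and 1 for the #A-59 interaction at 6 h (edgeR 0). The GC correction gave 1 in unstimulated #A-59 and 3 in unstimulated #B-20 (5) against parental cells, 2 in #B-20 against #A-59 at 6 h (5) and 3 at 18 h, and 3 in the #A-59 response at 6 h (1). Without the filter there were 4 in #B-20 against #A-59 at 0 h (2), 2 in #B-20 against parental cells at 18 h (4), 1 in the #B-20 response at 6 h (0) and 1 for the #A-59 interaction at 6 h. With at least 10 counts in every library there were 2 in #B-20 against #A-59 at 18 h. Only the libraries compared gave 2 in #A-59 (4) and 5 in #B-20 (3) against parental cells at 6 h, 1 in #B-20 against #A-59 at 6 h, 0 and 1 in the #A-59 and #B-20 responses at 6 h, and 0 for the #B-20 interaction at 18 h (1). The smaller fits have fewer degrees of freedom, and the causes of these changes in number were not tested.

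With the replicate number as a block, 2 members passed in unstimulated #A-59 against parental cells and 2 in the #A-59 response at 6 h, and no other number moved by over 1.5 times. The numbers were not shown to pair the libraries: over 36 pairs of groups, deviations of same-numbered libraries correlated at −0.03 to 0.32 (median 0.08), with 14 pairs over 0.1.

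Leaving out each of 18 libraries changed the call of 55 of the 286 values. The numbers of members passing then ranged, at 0, 6 and 18 h, over 0 to 2, 2 to 4 and 1 to 2 in #A-59 against parental cells, 3 to 6, 2 to 3 and 2 to 5 in #B-20 against parental cells, and 2 to 4, 2 to 6 and 1 to 3 in #B-20 against #A-59. For 6 h against 0 h, 18 h against 0 h and 18 h against 6 h they ranged over 1 to 6, 5 to 7 and 6 to 8 in parental cells, 1 to 2, 5 to 6 and 7 in #A-59, and 0 to 1, 5 to 7 and 6 to 8 in #B-20. For the interactions they were 0 to 2 and 0 in #A-59 and 0 and 0 to 1 in #B-20 at 6 h and 18 h. Every member had at least 582 counts in each library. The spread between libraries of a group, estimated for each gene over all 18 libraries, sets the precision of the members rather than the counts.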
